A study of Oryza sativa with 6 samples.

Results

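The momilactone cluster of rice chromosome 4 was described across 6 root arrays by its 5 biosynthetic genes, OsCPS4 (Os04g0178300), OsKSL4 (Os04g0179700), CYP99A2 (Os04g0180400), CYP99A3 (Os04g0178400) and OsMAS (Os04g0179200). Members were the probe sets annotated to exactly 1 of these loci. Each locus had 1 such probe set, so the cluster made up 5 of the 25727 genes with at least 1 own probe set, and all 5 were bright enough to be tested. In the reference gene table (assembly ASM3414082v1, used here only for names and neighbours) the genes stand in the order OsCPS4, CYP99A3, OsMAS, OsKSL4 and CYP99A2. That stretch holds 9 annotated genes, of which 6 code for protein; the sixth, between CYP99A3 and OsMAS, had no probe set of its own.

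Momilactones are labdane-related diterpenoids of rice. They act as phytoalexins, antimicrobial compounds made after attack, and roots also release them into the soil, where they inhibit neighbouring plants. The genes of the pathway lie side by side, and are usually induced together by elicitors, by jasmonate and by infection. OsCPS4 is the diterpene cyclase that turns geranylgeranyl diphosphate into syn-copalyl diphosphate, OsKSL4 the synthase that makes syn-pimaradiene from it, CYP99A2 and CYP99A3 are cytochrome P450 enzymes that oxidise this hydrocarbon, and OsMAS is the dehydrogenase of momilactone A synthesis.

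The study compared roots of the varieties Prasanna and Varadan, 14-day-old seedlings in hydroponics, with supplemented nitrogen or with none. Per variety there was 1 array lacking nitrogen and a pair of arrays with it. All seedlings shared a start of 7 days of germination and 10 days in a nutrient solution for rice (Yoshida medium) that held nitrogen, which together exceed the stated age, and no transgene, mutant or other agent is named. The labels do not say whether replicates are separate cultures; p-values therefore cover the spread between samples, and that spread may be a technical one. Values are log2 MAS5 signals, a single-array summary of Affymetrix probes, and differences are on that log2 scale, without minus with nitrogen or Varadan minus Prasanna. Signals of different probe sets cannot be set against each other, so a gene's level was compared only between arrays.

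The labels of 2 arrays are not settled. The column of the Varadan array without nitrogen and that of the Varadan array with nitrogen, replicate 1, are exchanged between the deposited log2 table, followed here, and the deposited series matrix; no source says which is right. Both arrays held nitrogen-responsive genes at the levels of roots lacking nitrogen. OsNRT2.3, a nitrate transporter, read 12.49 and 12.29 on them against 7.78 on replicate 2 of Varadan with nitrogen, and 11.31 without nitrogen against 6.82 and 7.06 with it in Prasanna. OsNiR, the nitrite reductase, read 11.26, 10.73 and 14.31 on the 3 Varadan arrays and 9.98, 13.41 and 13.93 on those of Prasanna. Median log2 signals lay between 5.59 on replicate 1 of Varadan with nitrogen and 6.11 on the Varadan array without nitrogen. The exchanged pair thus held both extremes. The root markers RCc3, Lsi1 and Lsi2 were detected well above the 40th percentile of every array, with a mean of 14.56, 14.26 and 14.13 on the Prasanna arrays and of 14.76, 14.62 and 14.09 on those of Varadan. Here and below, 3 values in a row belong to the array lacking nitrogen and then to replicates 1 and 2 that had it. So were the green-tissue markers: the mean of the 4 of 5 listed genes on the array was 12.59, 11.89 and 11.01 on the Prasanna arrays and 14.02, 13.15 and 11.94 on those of Varadan.

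The members' mean was highest on the Varadan array without nitrogen and lowest on replicate 1 of Varadan with nitrogen, the same pair whose columns are exchanged. OsCPS4 and CYP99A3 were instead dimmest on the Prasanna array without nitrogen (8.94 and 11.80). OsCPS4, the entry enzyme, was highest on replicate 1 of Prasanna with nitrogen. It read 8.94 without nitrogen and 10.54 and 9.70 with it in Prasanna, and 10.30 without nitrogen and 9.04 and 9.55 with it in Varadan. In Prasanna the array lacking nitrogen lay below both others, and in Varadan it lay above both others.

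**Figure D1:**
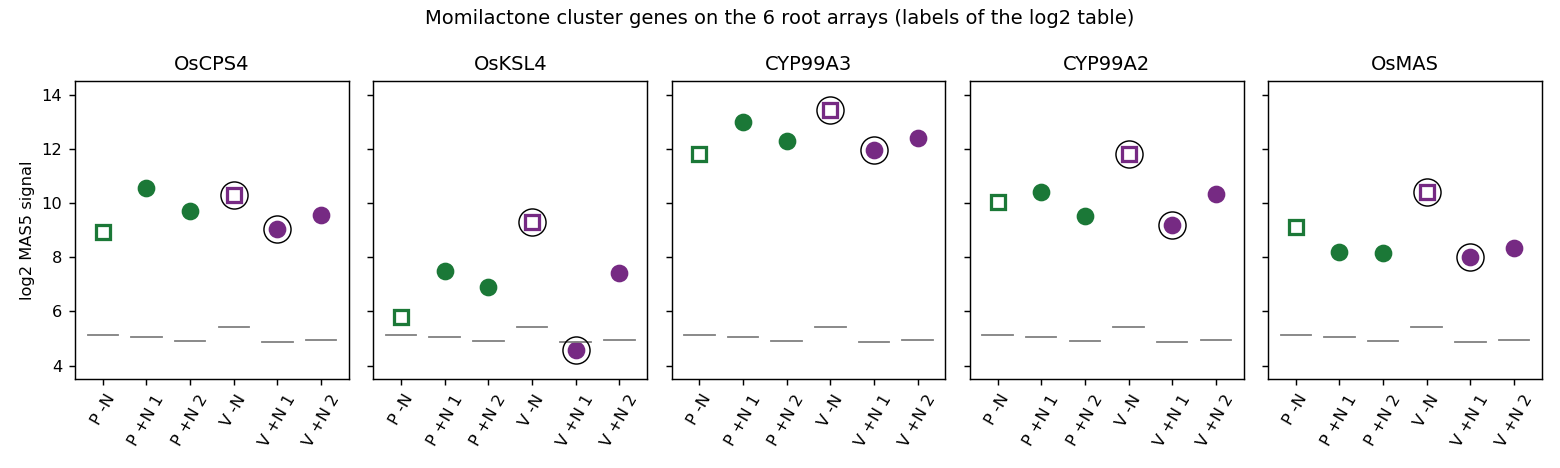
Log2 MAS5 signal (vertical axis) of the 5 cluster genes on each of the 6 arrays (P, Prasanna; V, Varadan; open squares, without nitrogen; filled circles, with nitrogen; one point per array). Large rings mark the 2 arrays with exchanged labels and grey dashes the 40th percentile of each array. On the Varadan array without nitrogen, which also had the highest median signal, 4 of 5 genes were highest. OsKSL4 on replicate 1 of Varadan with nitrogen is the only reading under the dash.

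OsKSL4, the second synthase, had the widest range. Its signal was 5.79 without nitrogen and 7.48 and 6.90 with it in Prasanna. The Varadan readings were 9.31 without nitrogen, 4.59 on replicate 1 with it and 7.44 on replicate 2. The reading of 4.59 lies under the 40th percentile of its array (4.89), the level below which a reading was not taken as above background, so each difference that rests on it is a bound. As for OsCPS4, the array lacking nitrogen was the lowest of its variety in Prasanna and the highest in Varadan.

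CYP99A3, the P450 next to OsCPS4, had the order of OsCPS4 and OsKSL4 within each variety: lowest without nitrogen in Prasanna, highest without it in Varadan. Its signals were 11.80, 12.99 and 12.29 on the Prasanna arrays and 13.43, 11.97 and 12.41 on those of Varadan, with the array lacking nitrogen first. CYP99A2, the P450 at the other end of the cluster, read 10.05 without nitrogen, between its 2 readings of 10.42 and 9.54 with nitrogen in Prasanna, and 11.80, 9.21 and 10.33 in Varadan. The nitrogen supplies thus did not overlap for CYP99A3 in either variety, and overlapped in Prasanna for CYP99A2. By the series matrix the Varadan reading of CYP99A3 without nitrogen is instead 11.97, the lowest of that variety. Each variety has a lone array without nitrogen, so a lack of overlap says little here. How many of all tested probe sets lacked overlap was not counted.

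OsMAS, the dehydrogenase of the last step, was by the log2 table the member whose arrays without nitrogen lay above those with it in both varieties. It read 9.11 without nitrogen and 8.20 and 8.14 with it in Prasanna, and 10.42, 8.02 and 8.33 in Varadan. Its 4 readings with nitrogen spanned 8.02 to 8.33, the narrowest span among the members, and both readings without nitrogen lay above all of them. By the series matrix the Varadan reading without nitrogen is instead 8.02, under every reading with nitrogen. The share of all tested probe sets separated in this way was not counted.

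The first comparison asked how the cluster differed between roots without nitrogen (2 arrays) and with it (4 arrays), in limma's additive model of variety and nitrogen. None of the 5 members passed (Benjamini-Hochberg adjusted p under 0.05), where 0% of all 34316 tested probe sets did. OsMAS was 1.59 ± 0.33 higher without nitrogen (SE; limma adjusted p = 0.123) and was the one member at an unadjusted p under 0.05, a level that 21.6% of all tested probe sets reached (8.58% higher, 13% lower). The other differences were -0.09 ± 0.51 for OsCPS4, at least 0.88 for OsKSL4, 0.20 ± 0.46 for CYP99A3 and 1.06 ± 0.53 for CYP99A2 (adjusted p from 0.295 to 0.932). The median of the members is the value of OsKSL4, so it is a bound too (0.95 with its reading kept as deposited). Over all tested probe sets the median was -0.00.

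Without replicate 1 of Varadan with nitrogen, the array whose nitrogen genes went against its label, 13.5% of the tested probe sets passed (5.96% higher, 7.5% lower). OsMAS rose there by 1.43 ± 0.30 without nitrogen (limma adjusted p = 0.0247), and the other 4 members did not pass. Markers passed in the same fit too: 3 of 4 green-tissue markers, 2 of 5 defence markers (PBZ1 and OsPR1b) and 1 of 3 root markers (Lsi2) were higher without nitrogen, and their part in the OsMAS difference was not tested. OsCPS4 read -0.35 ± 0.45, OsKSL4 0.01 ± 0.70, CYP99A3 -0.04 ± 0.41 and CYP99A2 0.68 ± 0.38. The members' median was 0.01 there, beside -0.01 over all tested probe sets. The call of OsMAS rests on which table is right: with the series matrix its difference was -0.21 ± 0.69 over 6 arrays and 0.40 ± 0.32 without the array that this matrix calls replicate 1.

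Within Prasanna, whose labels agree between the tables, the synthase genes and CYP99A3 were lower without nitrogen and OsMAS was higher, but none of the 5 passed (0% of all tested probe sets passed). The differences, from the fit of 1 mean per variety and supply, were -1.19 ± 0.46 for OsCPS4 (limma adjusted p = 0.430), -1.40 ± 1.18 for OsKSL4, -0.84 ± 0.38 for CYP99A3, 0.07 ± 0.60 for CYP99A2 and 0.94 ± 0.33 for OsMAS (adjusted p = 0.427). One member was thus lower and 1 higher at an unadjusted p under 0.05, beside 6.88% and 4.73% of all tested probe sets. That fit pools the spread of both replicate pairs with nitrogen, so its SEs and p rest on an exchanged Varadan array as well. With the series matrix, which gives the same Prasanna differences, 0 members were lower and 0 higher at that level. Of all 34316 tested probe sets 1074 were lower and 921 higher there. Against replicate 1 with nitrogen 3 of 5 members were at least 2-fold lower (13.2% of all tested probe sets were), and against replicate 2 only OsKSL4 was (11.7%). The replicates themselves differed: all 5 members were higher on replicate 1 than on replicate 2, by under 2-fold each, while 17% of all tested probe sets differed at least 2-fold in either direction.

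Within Varadan, by the labels of the log2 table, all 5 members were higher without nitrogen, and again none passed (0% of all tested probe sets). OsKSL4 was at least 3.15 higher, OsMAS 2.24 ± 0.33 (limma adjusted p = 0.333), CYP99A2 2.04 ± 0.60, CYP99A3 1.24 ± 0.38 and OsCPS4 1.01 ± 0.46. At an unadjusted p under 0.05 there were 4 of 5 members higher, beside 4.47% of all tested probe sets. The median over the members was 2.04, and 0.02 over all tested probe sets. Without replicate 1 the differences were 1.88 ± 0.51 for OsKSL4, 2.08 ± 0.32 for OsMAS, 1.48 ± 0.47 for CYP99A2, 1.02 ± 0.39 for CYP99A3 and 0.76 ± 0.47 for OsCPS4, with none past the threshold (0.702% of all tested probe sets passed).

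With the series matrix every one of these Varadan differences changed sign. They read -3.49 or lower for OsKSL4, -1.35 ± 0.85 for OsMAS, -1.86 ± 0.71 for CYP99A2, -0.95 ± 0.53 for CYP99A3 and -0.89 ± 0.55 for OsCPS4, and none passed (0% of all tested probe sets). The direction of the nitrogen response of this cluster in Varadan is therefore set by which of 2 deposited tables is followed. The signals and differences for Prasanna are equal in both tables, while the SEs of those differences are not.

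**Figure D2:**
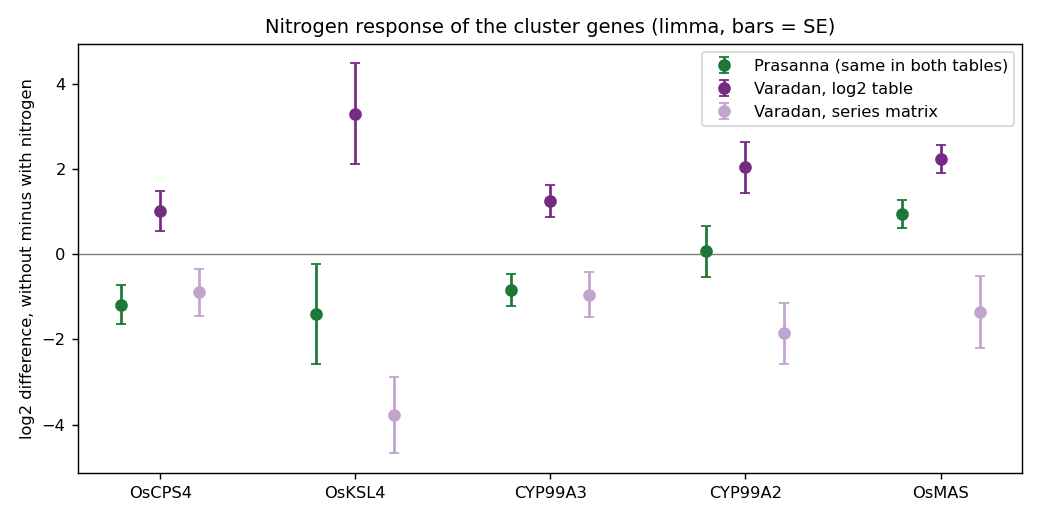
Difference in log2 signal, without minus with nitrogen (vertical axis), of the 5 cluster genes in Prasanna (green), in Varadan by the log2 table (dark purple) and in Varadan by the series matrix (light purple); points are limma estimates and bars their SE. All 5 Varadan points lie above 0 by one table and below 0 by the other; the OsKSL4 points rest on 1 reading under the 40th percentile, and raised to it they are at least 3.15 and -3.49 or lower.

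The difference of the responses, Varadan minus Prasanna, asked whether the varieties reacted unlike each other. It was above 0 for each member by the log2 table: at least 4.55 for OsKSL4, 2.20 ± 0.65 for OsCPS4, 2.08 ± 0.53 for CYP99A3, 1.96 ± 0.84 for CYP99A2 and 1.30 ± 0.47 for OsMAS. None passed, where 0% of all tested probe sets did (limma adjusted p = 0.925 for 4 members and 0.932 for CYP99A2), and 4 of 5 were higher at an unadjusted p under 0.05, beside 2.7% of all tested probe sets. The median of 2.08 stands beside -0.02 over all tested probe sets. By the series matrix the difference was 0.29 for OsCPS4, -0.11 for CYP99A3, -2.29 for OsMAS, -2.38 for OsKSL4 (its reading under the percentile kept as deposited) and -1.93 for CYP99A2, with SEs from 0.75 to 1.26, again with none past the threshold (0% of all tested probe sets).

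Between the varieties, over both supplies (3 arrays against 3), no member differed past the threshold, while 1.75% of all tested probe sets did. The limma differences, Varadan minus Prasanna, were -0.10 ± 0.48 for OsCPS4, 0.49 or lower for OsKSL4, 0.25 ± 0.44 for CYP99A3, 0.44 ± 0.50 for CYP99A2 and 0.44 ± 0.31 for OsMAS, with adjusted p from 0.706 to 0.967. The 2 arrays labelled as lacking nitrogen did stand apart in this cluster, since all 5 members were at least 2-fold higher in Varadan than in Prasanna there, against 13% of all tested probe sets. That is 1 array of each variety, so it has no replicate check, and by the series matrix the Varadan array concerned had nitrogen.

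The 2 exchanged Varadan arrays were alike in the nitrogen genes and far apart in the cluster. On the array that the log2 table calls without nitrogen, OsKSL4 was at least 21.5-fold brighter than on replicate 1 with nitrogen, CYP99A2 6.05-fold, OsMAS 5.26-fold, CYP99A3 2.75-fold and OsCPS4 2.41-fold. All 5 members were thus at least 2-fold higher, where 14.3% of all tested probe sets were. OsNRT2.3 read 12.49 and 12.29 on this pair and OsAMT1.2, an ammonium transporter, 10.83 and 10.78. Against replicate 2 of Varadan, 4 of 5 members were at least 2-fold higher on the array called without nitrogen (18% of all tested probe sets). Replicates 1 and 2 differed from each other at least 2-fold in OsKSL4 (at least 5.84-fold) and CYP99A2 (2.17-fold), both lower on replicate 1, beside 11.2% of all tested probe sets.

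**Figure D3:**
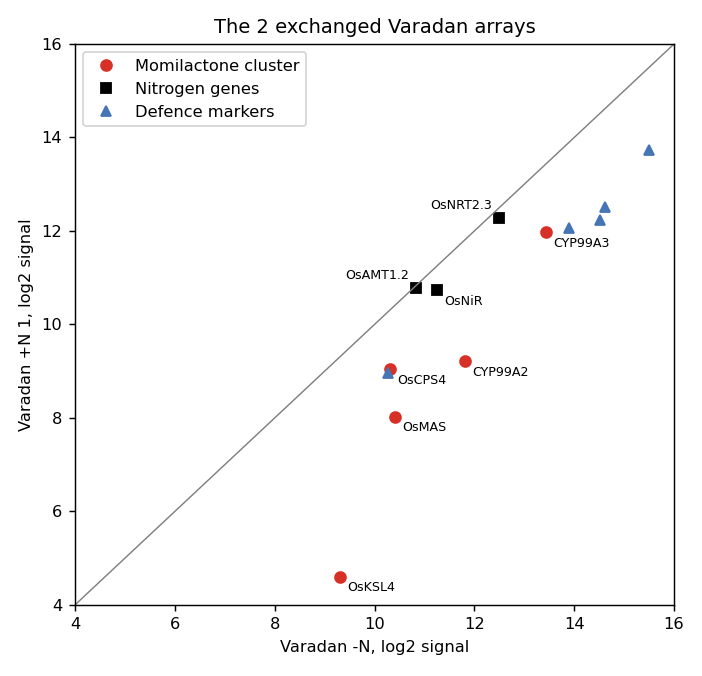
Log2 signal of 13 genes on the 2 Varadan arrays whose columns are exchanged (horizontal axis, the array called without nitrogen by the log2 table; vertical axis, the array called with nitrogen, replicate 1); the line marks equal signals. The 3 nitrogen genes (black squares) lie on or near the line, while all 5 cluster genes (red circles) and all 5 defence markers (blue triangles) lie under it.

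Defence markers shared the brightest array of the members' mean, but 3 of the 5 did not share its order in Prasanna. The mean of PBZ1, OsPR10b, OsPR1a, OsPR1b and JIOsPR10, pathogenesis-related genes induced by infection, was 11.84, 11.93 and 11.46 on the Prasanna arrays and 13.76, 11.90 and 12.54 on those of Varadan, and none of the 5 was under the 40th percentile on any array. All 5 were highest on the Varadan array without nitrogen. So were 7 of 8 precursor genes, 7 of 8 genes of the chromosome 2 cluster and 4 of 4 green-tissue markers. The counts were 4 of 9 for the listed regulators and 0 of 3 for the gibberellin branch. That array also had the highest median signal, and the share of all tested probe sets highest on it was not counted. In Prasanna 3 of the 5 defence markers, among them PBZ1 (14.94, 14.18 and 13.50) and OsPR1b (7.08, 6.16 and 5.55), were highest without nitrogen, where the members' mean was lowest. The other 2, OsPR1a (11.14, 11.90 and 11.57) and JIOsPR10 (12.55, 13.98 and 13.50), had the order of the members' mean there. The correlations of the 5 with that mean over the 6 arrays were 0.700 for PBZ1, 0.919 for OsPR10b, 0.696 for OsPR1a, 0.380 for OsPR1b and 0.920 for JIOsPR10. A control for the 3' end of EF1a of Magnaporthe, the blast fungus, gave 7.28, 7.68 and 8.50 on the Prasanna arrays. It gave 9.50, 7.57 and 10.23 on those of Varadan, highest on replicate 2, and another set for that end was highest there too. The controls for the 5' end (2.76, 2.45 and 1.38 in Varadan) and the middle (6.92, 3.19 and 1.29) of EF1a were instead lowest on that array. Of the 10 control probe sets for this fungus 4 were highest on the Varadan array without nitrogen, where the members' mean was highest. Another 3 were highest on replicate 2 of Varadan and 3 on replicate 1 of Prasanna with nitrogen. All readings of the GAPDH controls, and some of the others, lay under the 40th percentile of their arrays. This count therefore rests in part on readings not taken as above background. The mean of the green-tissue markers was also highest on the Varadan array without nitrogen, with the next highest mean on the other exchanged array. The part of defence induction, of microbes or of tissue make-up in the cluster's levels was not tested, and in whole roots fewer cells of a type and less RNA per cell cannot be told apart.

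Over the 6 arrays the members varied together to unequal degrees. Pearson correlations between pairs ran from 0.270 for OsCPS4 and OsMAS to 0.925 for the neighbours OsCPS4 and CYP99A3. CYP99A2 correlated at 0.944 with the mean of the other 4 members, OsKSL4 at 0.917, CYP99A3 at 0.906, OsCPS4 at 0.726 and OsMAS at 0.650. These values describe 6 arrays of 4 groups that share scaling and the 2 exchanged arrays, and carry no test. OsMAS, the least like the others, is also the one member that was higher without nitrogen in Prasanna by both replicates.

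The genes outside the cluster whose pattern over the 6 arrays was most like the members' mean (9.14, 9.93 and 9.31 in Prasanna, 11.05, 8.57 and 9.61 in Varadan) were Os03g0731100 (r = 0.997), Os08g0533600 (0.987), Os06g0229900 (0.986), Os06g0586300 (0.981) and Os01g0825900 (0.981). The reference table gives none of them a name. The 8 genes of precursor supply ran from an r of -0.173 for OsDXS1 to one of 0.930 for OsDXR with that mean. The nitrogen genes had 0.038 for OsNRT2.3, -0.024 for OsAMT1.2 and 0.141 for OsNiR.

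Precursors for the cluster come from the plastidial methylerythritol phosphate pathway and from geranylgeranyl diphosphate synthase. Of its 9 listed genes 8 had a probe set, all tested, and their mean was highest on the Varadan array without nitrogen (10.85, 10.67 and 10.40 in Prasanna, 11.72, 11.07 and 10.63 in Varadan). Over all 6 arrays 0 of 8 passed the nitrogen comparison (2 higher at an unadjusted p under 0.05, beside 8.58% of all tested probe sets), and without replicate 1 of Varadan 2 of 8 were higher without nitrogen (beside 5.96%). OsDXS3, a first-step enzyme of the pathway, read 12.24, 11.38 and 10.84 on the Prasanna arrays and 13.37, 11.84 and 10.82 on those of Varadan, and rose by 1.74 ± 0.33 on those 5 arrays (limma adjusted p = 0.0182). OsDXS1, its relative, rose by 1.62 ± 0.33 (adjusted p = 0.0222). OsDXR, the second enzyme, read 0.07 ± 0.29 and the diphosphate synthase OsGGPPS1 0.61 ± 0.22 (adjusted p = 0.112).

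CYP701A8, a P450 of momilactone and phytoalexin synthesis encoded outside the cluster, followed the members' order on the Varadan arrays. Its signal was 9.98, 10.40 and 9.08 on the Prasanna arrays and 12.51, 9.58 and 10.19 on those of Varadan. The nitrogen difference was 1.44 ± 0.59 over all 6 arrays (limma adjusted p = 0.225) and 1.14 ± 0.53 without replicate 1 of Varadan (adjusted p = 0.206), so it did not pass in either.

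The other diterpenoid cluster of rice, on chromosome 2, serves phytocassanes and shares P450 enzymes of the CYP76M family with momilactone synthesis. Of its 9 listed genes 8 had a probe set, all tested, with means of 8.83, 7.89 and 7.28 on the Prasanna arrays and 9.92, 8.19 and 8.45 on those of Varadan. On the Prasanna arrays 5 of the 8 genes were highest on replicate 1 with nitrogen, as 4 of 5 genes of the chromosome 4 cluster were, and 3 were highest without nitrogen. That replicate was also the highest for 5 of 8 precursor genes and 6 of 9 listed regulators, but for 2 of 5 defence and 0 of 4 green-tissue markers. The share of all tested probe sets was not counted. The mean of the 8 genes was highest without nitrogen in Prasanna through CYP71Z6 and Os02g0571300, whose readings with nitrogen there lie under the percentile. Over all 6 arrays none of the 8 passed for nitrogen (3 higher at an unadjusted p under 0.05, as 8.58% of all tested probe sets were), and without replicate 1 of Varadan 2 of 8 rose (5.96% of all tested probe sets).

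CYP76M5 read 8.64, 7.34 and 6.39 on the Prasanna arrays and 9.60, 7.59 and 6.92 on those of Varadan, and rose by 2.16 ± 0.39 on those 5 arrays (limma adjusted p = 0.0163). CYP71Z6, a P450 of this cluster, rose by at least 2.56 (adjusted p = 0.0271), with readings of 1.60 and 3.62 under the percentile on the Prasanna arrays with nitrogen. OsCPS2, the cyclase that makes the ent isomer of copalyl diphosphate for phytoalexins and so the counterpart of OsCPS4, read 1.37 ± 0.55 (adjusted p = 0.154). OsKSL7, the synthase of the phytocassane branch and counterpart of OsKSL4, read -0.16 ± 0.42.

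**Figure D4:**
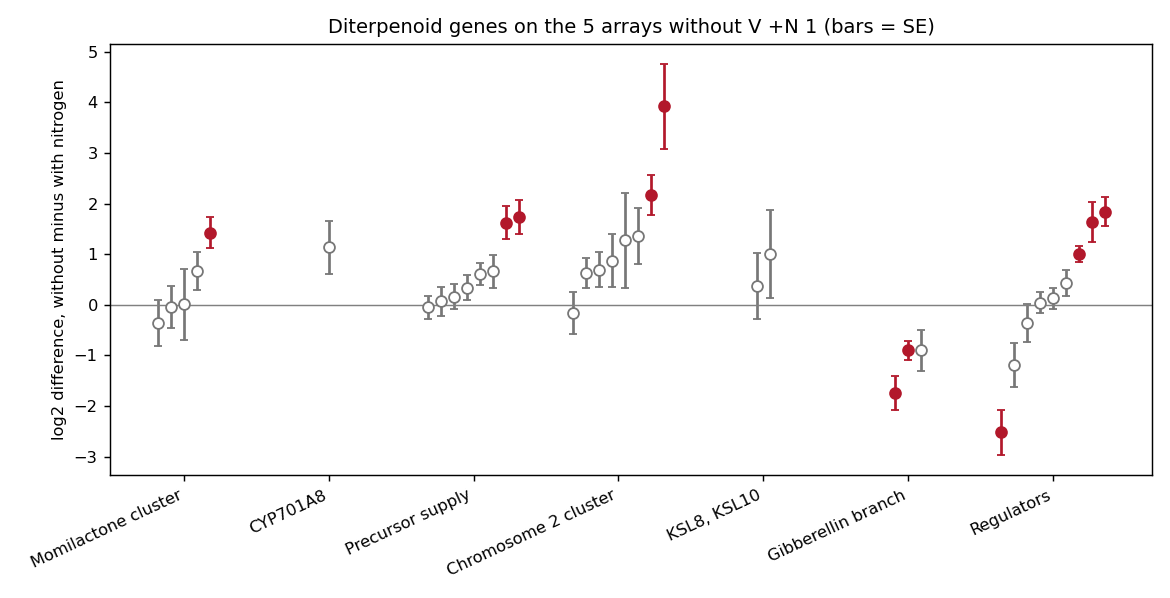
Difference in log2 signal, without minus with nitrogen (vertical axis), on the 5 arrays left without replicate 1 of Varadan with nitrogen, for each listed gene of the diterpenoid pathways (columns of points; bars are limma's SE). Filled red points passed at an adjusted p under 0.05, among them OsMAS alone of the 5 cluster genes; over all 6 arrays no point passed, and the topmost point, CYP71Z6, is a bound of at least 2.56.

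The gibberellin branch draws on the same precursor as the cluster. Its 3 genes had means of 7.70, 8.77 and 8.54 on the Prasanna arrays and 7.08, 7.97 and 8.57 on those of Varadan, lowest on the array without nitrogen in both. Over all 6 arrays none passed (2 lower at an unadjusted p under 0.05, a level that 13% of all tested probe sets reached in that direction). On the 5 arrays OsCPS1, the copalyl diphosphate synthase of gibberellin synthesis, fell by 1.75 ± 0.34 (limma adjusted p = 0.0189) and the kaurene oxidase OsKO2 by 0.90 ± 0.19 (adjusted p = 0.0265), while OsKS1 read -0.90 ± 0.41 (adjusted p = 0.193); 7.5% of all tested probe sets were lower past the threshold there. OsKSL8 and OsKSL10, synthases of the oryzalexin branches, were dim, with 0 of 2 passing.

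**Figure D5:**
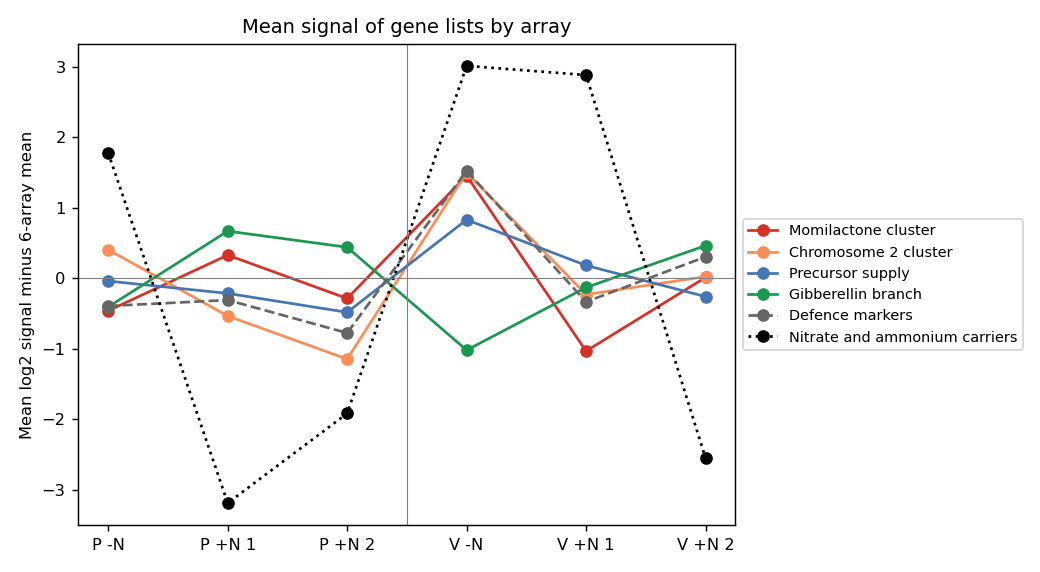
Mean log2 signal of gene lists on each array minus the list's mean over the 6 arrays (vertical axis; horizontal axis, the arrays, P for Prasanna and V for Varadan). The momilactone cluster (red), the chromosome 2 cluster (orange), precursor supply (blue) and the defence markers (grey dashes) all peak on the Varadan array without nitrogen. OsNRT2.3 and OsAMT1.2 (black dots) are high on both exchanged arrays.

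Known regulators of these clusters did not share one pattern. OsTGAP1 and OsDPF are transcription factors that control diterpenoid phytoalexin genes, OsWRKY45, OsWRKY53, OsWRKY62, OsWRKY76 and OsWRKY10 act in rice defence, and OsMYC2 and OsJAR1 belong to jasmonate signalling. None of the 9 passed for nitrogen over all 6 arrays (3 higher at an unadjusted p under 0.05, and 8.58% of all tested probe sets). Without replicate 1 of Varadan 3 of 9 rose and 1 fell, where 5.96% of all tested probe sets rose and 7.5% fell. OsDPF read 11.60, 9.89 and 9.08 on the Prasanna arrays and 11.63, 11.27 and 10.15 on those of Varadan, and rose by 1.84 ± 0.28 (limma adjusted p = 0.0100).

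OsTGAP1 rose by 1.01 ± 0.16 (limma adjusted p = 0.0106) and OsWRKY10 by 1.63 ± 0.40 (adjusted p = 0.0388) on the same 5 arrays. OsWRKY62, a repressor of defence genes, went the other way: it read 5.54, 9.18 and 8.10 on the Prasanna arrays and 7.45, 6.53 and 9.20 on those of Varadan, and fell by 2.52 ± 0.45 (adjusted p = 0.0152). OsTGAP1 (r = -0.008) and OsDPF (0.124) had nearly no correlation with the members' mean over the 6 arrays, while OsWRKY45 had one of 0.799 and OsWRKY53 one of 0.775. By the series matrix without its own replicate 1, which shares 4 of those 5 arrays, OsDXS3 (1.08), OsDXS1 (1.69), OsDPF (1.69), OsTGAP1 (0.98) and OsWRKY62 (-2.92) passed as well. CYP76M5 (adjusted p = 0.103), CYP71Z6 (0.0939), OsCPS1 (0.0624), OsKO2 (0.083), OsWRKY10 (0.15) and OsMAS (0.495) did not, and OsKSL4 was lower by 2.02 ± 0.50 in that fit (0.0497, from a reading under the percentile kept as deposited, with 8.39% of all tested probe sets past the threshold).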

How the data were processed

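Root RNA was measured on 6 Affymetrix rice arrays. The submitters' processing notes name MAS5, with no version or settings. Their deposited log2 table was analysed unchanged. As an alternative, the deposited series matrix gives these signals as linear intensity, scaled on every array to a mean of 500 after trimming 2% at each end, which hides any shift that most genes share. The tables agreed within 1e-06 for 4 arrays and exchange the other two.

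After 187 controls were left out, tests ran on the 34316 probe sets with a mean at or above the 40th percentile, with limma 3.58.1 in R 4.3.3 (lmFit, eBayes with trend, two-sided) and Benjamini-Hochberg adjustment at 0.05 over all of them. An additive model gave the nitrogen and variety differences. A model of 1 mean per variety and supply gave the responses within a variety and their difference, and assumes that each lone array without nitrogen varies like the others. Readings under their array's 40th percentile (4.89 to 5.42) were raised to it for a bound, printed as "at least" or "or lower" with the deposited values' p. The script was tested on simulated data. The labels number only replicate 2; the number 1 is a name. The second arrays without nitrogen that the design text mentions were not analysed here.

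Members, gene lists and tests were chosen with earlier results of these data known. Named were all members, up to 4 genes of each list, the genes between Os04g0176000 and Os04g0183000 and the 5 genes most like the members. A listed gene with several probe sets was represented by the one with the highest mean signal. Of 55 listed loci 50 had an entry in the reference table, and of the listed genes OsMAS2, OsCMS, Os02g0571800 and CAB1R had no probe set of their own; whether RNA of OsMAS2 adds to the OsMAS signal was not tested. Alternatives were the series matrix, other filters and variance settings, quantile normalization and leaving out each array. The number of arrays limits the precision.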

Additional observations from a re-analysis of the deposited data

How the results depend on the processing

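No paired analysis was possible because the labels number only replicate 2, which only the groups with nitrogen have. Of 396 values under alternatives, 64 of 66 counts of members called and 283 of 330 differences of single genes kept their direction and side of the threshold, and 46 differences changed sign. OsMAS in the nitrogen comparison passed only without replicate 1 of Varadan with nitrogen (1.43), where 1 member was called in place of 0. The series matrix without its own replicate 1 also called 1 member, OsKSL4.

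With the series matrix the nitrogen differences of CYP99A3 (-0.89), OsMAS (-0.21), OsKSL4 (-2.59) and CYP99A2 (-0.89) changed sign. So did all 5 Varadan responses: OsCPS4 -0.89, CYP99A3 -0.95, OsMAS -1.35, OsKSL4 -3.78 and CYP99A2 -1.86. The differences of the responses became -0.11 for CYP99A3, -2.29 for OsMAS, -2.38 for OsKSL4 and -1.93 for CYP99A2. Without its own replicate 1 this matrix gave nitrogen differences of -0.67 for CYP99A3, -2.02 for OsKSL4 and -0.44 for CYP99A2, and variety differences of -0.0558, -0.37, -0.37 and -0.17 for CYP99A3, OsMAS, OsKSL4 and CYP99A2. Its Varadan responses were -0.51 for OsCPS4, -0.44 for CYP99A3, -0.31 for OsMAS, -2.84 for OsKSL4 and -1.12 for CYP99A2, and its differences of the responses -1.25, -1.44 and -1.19 for OsMAS, OsKSL4 and CYP99A2. Over 6 arrays the exchange of 2 Varadan columns makes these changes and leaves the variety differences as they were; in the fit without its own replicate 1 an array is left out as well. Values of OsKSL4 that use its reading under the percentile are given from the deposited reading and are bounds, not sizes. Quantile normalization gave 0.0196 for the nitrogen difference of OsCPS4. With both exchanged arrays left out, an alternative added after seeing the data, the nitrogen difference is that of Prasanna (CYP99A3 -0.84, OsKSL4 -1.40) and the variety difference of CYP99A3 was -0.23.

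Leaving out 1 array at a time moved the nitrogen difference of OsCPS4 between -1.19 and 1.01, of CYP99A3 between -0.84 and 1.24, of OsKSL4 between -1.40 and 3.30, of CYP99A2 between 0.0726 and 2.04 and of OsMAS between 0.94 and 2.24. The lowest values came without the Varadan array lacking nitrogen and the highest without that of Prasanna, which leave the response of 1 variety. Variety differences ran from -0.83 to 0.35 for OsCPS4, from -0.45 to 0.64 for CYP99A3 and from -1.17 to 1.65 for OsKSL4. They ran from -0.21 to 0.95 for CYP99A2 and from 0.0057 to 0.65 for OsMAS, and the Prasanna response of CYP99A2 from -0.37 to 0.52. For OsKSL4 the values 3.30 and -1.17 use its reading under the percentile and are bounds, not sizes. The number of members called for nitrogen lay between 0 and 1.

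Over all tested probe sets limma called 0 for nitrogen on 6 arrays, 4616 without replicate 1 of Varadan, 2880 in the series matrix without its own and 594 without both exchanged arrays. For variety it called 601, and between 176 (no variance trend) and 1099 (series matrix without its own replicate 1) under alternatives. The mean over a gene's probe sets gave no further value, since each member has 1. With no detection calls, signal over background was judged by level alone, which touches OsKSL4 on 1 array.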

Other observations

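Of the 14 other genes with a probe set between the loci Os04g0176000 and Os04g0183000, 8 were tested. Os04g0182200 had the order of OsKSL4 and CYP99A3 on the Varadan arrays (8.07, 6.83 and 7.67) and was also lowest without nitrogen on those of Prasanna (7.82, 8.23 and 8.31); likeness of these genes to the cluster was not tested. Os04g0180900, next in locus number after CYP99A2 among the tested genes, had signals of 5.64, 6.01 and 4.68 in Prasanna and of 10.53, 10.46 and 9.89 in Varadan, with the array lacking nitrogen first. It was at least 4.77 higher in Varadan (limma adjusted p = 0.00227), with no overlap between the varieties, where 1.75% of all tested probe sets passed and none of the 5 cluster genes did. Whether the probes match the sequence of both varieties was not tested.

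Signals of Os04g0181100 were 14.24, 13.21 and 13.52 for Prasanna, 14.20, 13.60 and 12.78 for Varadan. Without replicate 1 of Varadan with nitrogen it rose by 1.11 ± 0.19 without nitrogen (limma adjusted p = 0.0132), and over all 6 arrays the difference was 0.94 ± 0.24 (adjusted p = 0.129). Os04g0180300, which has the locus number before CYP99A2, had 6.74, 1.84 and 1.27 for Prasanna, 6.65, 1.10 and 2.95 for Varadan. Its 4 readings with nitrogen lay under the 40th percentile of their arrays and it was too dim on average to be tested.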
